A study of Mus musculus with 9 samples.

Results

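The cathepsins and lysosomal hydrolases described here are 32 genes of 21853 measured in mouse brain. They were chosen by name as lysosomal proteases, glycosidases, lipid-degrading enzymes and their protein partners. The rule uses no measured value, but the members were chosen with earlier results of these data known. By role they comprise 7 cysteine cathepsins, 3 aspartic and serine proteases, 9 glycosidases, 4 enzymes that act on sulfate, ceramide, thioester or lipid ester bonds, 5 activators, lipid carriers or granulins, and 4 membrane proteins. All 32 passed the filter on low values, and none was at 0 in any library.

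Poly(A) RNA was sequenced in 9 libraries, 3 in each of 3 groups. The WT group is wild-type mice given an AAV that carries mCherry alone behind the astrocyte promoter GFAP. The HD group is N171-82Q mice, a Huntington's disease model that carries a transgene for an N-terminal fragment of mutant huntingtin, given that same control virus. The WNT5B group is N171-82Q mice given an AAV whose GFAP promoter drives WNT5B, a secreted Wnt ligand, joined to mCherry. The study placed the virus in the striatum, but the labels name the tissue only as brain. Every mouse therefore received a virus, and no group is uninjected. Nothing in the labels gives the sex or age of the mice or ties libraries to separate mice, so the p-values below measure only the spread between libraries, which may be technical.

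Lysosomal hydrolases are made in the endoplasmic reticulum, most of them tagged with mannose 6-phosphate in the Golgi, and delivered to an acidic compartment where they degrade proteins, glycans and lipids brought in by endocytosis and autophagy. Many of their genes carry an E-box of the CLEAR type near the start site, which the transcription factor TFEB and its relatives bind. In the brain every cell type has lysosomes, microglia are rich in several cathepsins, and inherited loss of many of these enzymes causes neurodegenerative storage disease.

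The core of that E-box was searched as TCACGTG on both strands in RefSeq promoter windows of 300 bases (250 before to 50 after the start site, GRCm38.p6). Of the 32 genes, 28 had a window, with 31 windows in all, and Asah1, Npc1, Ctsb and Ctsh had none. The core lay in 9 genes' windows, 29% of the 31, against 3.77% of all 32851 promoter windows. In 5 genes, 16.1% of windows, it lay as the palindrome TCACGTGA, which contains the core on both strands and which 0.974% of all windows hold. The palindromic sites were chosen for printing with the levels of their genes known. In WNT5B against HD Ctsd and Ctsa rose, Mcoln1 and Gla fell, and Cln3 did not pass. All 6 palindromic sites found are shown. Each is read 5′ to 3′ on the gene's own strand, with the palindrome in capitals, and each overlaps an annotated exon of GENCODE M21.
Ctsd: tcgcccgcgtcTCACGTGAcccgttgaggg
Ctsa: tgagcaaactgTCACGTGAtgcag
Mcoln1: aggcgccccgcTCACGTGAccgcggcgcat
Cln3: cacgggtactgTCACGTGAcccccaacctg
Gla, distal: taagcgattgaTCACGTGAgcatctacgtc
Gla, proximal: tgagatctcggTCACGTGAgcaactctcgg

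In mm10 these windows are chr7:142387908-142387937 on the minus strand for Ctsd, chr2:164833749-164833772 on the plus strand for Ctsa and chr8:3500462-3500491 on the plus strand for Mcoln1. The Cln3 window is chr7:126583340-126583369 on the minus strand. The Gla windows are chrX:134601215-134601244 and chrX:134601182-134601211 on the minus strand. The other members with the 7-base core were Glb1, Naglu, Gaa and Arsa, and Ctsd, Mcoln1 and Cln3 each held a further copy of it. A match of letters is a description and not a binding site.

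The deposited values are normalized read counts, that is, estimated counts divided by a factor for each library and not by gene length. From the steps between low values the libraries held 67.8 to 77.8 M reads (WT), 69.8 to 90.6 M (HD) and 37.3 to 52.1 M (WNT5B), so WNT5B values rest on fewer reads. The values of a library summed to 54.6 to 54.7 M for WT, 55.6 to 55.8 M for HD and 79.9 to 83.8 M for WNT5B. The WNT5B libraries also scattered more: the median SD of log2 values over the genes tested was 0.046 in WT, 0.040 in HD and 0.258 in WNT5B, and over the 32 genes 0.032, 0.029 and 0.170. Mouse Wnt5b was at 57.7 to 74.6 in WT, 44.2 to 63.8 in HD, and at 184, 22.5 and 212 in the WNT5B libraries. The labels do not give the species of the WNT5B cargo, so this gene may not read the transgene, and WNT5B library 2 does not show a rise in it. Neurons were present in every library. The 12 neuron markers summed to 484501 to 487804 for WT, 476567 to 481017 for HD and 245334 to 259031 for WNT5B. The WNT5B sum did not stand for every marker. Against HD 4 of the 12 were higher and 7 lower, beside 35.8% and 41.7% of all genes tested. From HD to WNT5B Rbfox3 rose from 16575 to 27249. Snap25 (84521 to 33131), Syt1 (66034 to 10140), Map2 (51912 to 9554) and Ppp1r1b (158147 to 81299.5) went down.

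Of the genes with all values printed below, 5 lie, in mm10, at chr7:142375911-142388038 (Ctsd), chr9:59539540-59565109 (Hexa), chr13:64359337-64370890 (Ctsl), chr10:60277627-60302597 (Psap) and chrX:134588149-134601125 (Gla).

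In HD against WT the genes divided, with cathepsin L, the TRPML1 channel gene Mcoln1 and the saposin precursor gene Psap higher in HD, and the β-hexosaminidase gene Hexa, the acid lipase gene Lipa and the protease gene Tpp1 lower. Of the 32, 16 changed (11 higher, 5 lower), beside 45.1% of all 15411 genes tested with limma at a Benjamini-Hochberg adjusted p under 0.05 (24.5% higher, 20.7% lower). The median log2 change was -0.00 for the 32 and 0.02 for all genes tested. Only Hexa, lower, changed at least 2-fold, beside 10.2% of all genes (4.46% higher, 5.75% lower). The shared spread includes the scattered WNT5B libraries. With a weight for each group 28 passed (14 higher, 14 lower) beside 82.9% of all genes. This added Ctsb, Gla and Npc1 as higher, and Ctsd, Ctss, Gusb, Arsa, Asah1, Gm2a, Npc2, Ppt1 and Cln3 as lower. The WT and HD libraries did not overlap in 26 of the 32, beside 84% of all genes.

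In WNT5B against HD the changes were larger. Cathepsins D, Z and B, Hexa, Glb1, Galc and Naglu rose more than 2-fold, while Gla, Man2b1, Ctsc and Ctsl fell more than 2-fold. Of the 32, 26 changed (16 higher, 10 lower) beside 77.5% of all genes tested (35.8% higher, 41.7% lower), and their median log2 change was 0.42 beside -0.23 for all genes. At least 2-fold changes numbered 11 higher and 4 lower, beside 52.4% of all genes (23.6% higher, 28.8% lower). Tests with a weight for each group gave 25, beside 70.1%. The groups did not overlap in 26, beside 78.7% of all genes.

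In WNT5B against WT 26 of the 32 changed as well (18 higher, 8 lower), beside 77.9% of all genes (35.9% higher, 42.1% lower), with a median of 0.53 beside -0.25. Changes of at least 2-fold numbered 11 higher and 5 lower, beside 53.3% of all genes (23.9% higher, 29.4% lower). With a weight for each group 25 passed, beside 71.1%, and the groups did not overlap in 26, beside 79.4%. This comparison shares its WNT5B libraries with the comparison against HD, and that one shares its HD libraries with HD against WT, so the 3 sets of changes are not independent. Direction in both WNT5B comparisons depends on the scale. With every library set to an equal total, the median of all genes moved from -0.23 to -0.76 against HD and from -0.25 to -0.80 against WT. The split of the 32 then became 13 higher and 14 lower in each, and the share of higher genes among all genes called went from 46.2% to 32.2% against HD and from 46% to 31.8% against WT. Rises shrank and falls deepened by that shift, as for Ctsb (1.41 to 0.86) and Psap (-0.85 to -1.40) against HD. Relative to the median of all genes the median of the 32 was 0.65 at the deposited scale and 0.63 with equal totals against HD, and 0.77 and 0.75 against WT.

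A share of each library's total does not depend on the scale. The 32 genes took 0.406 to 0.416% of all values (WT), 0.492 to 0.499% (HD) and 0.478 to 0.501% (WNT5B). WT lay below HD without overlap, and HD lay inside the WNT5B range. The leading genes of the sum differed between HD and WNT5B. Psap, with 116849 ± 2416 (mean ± SD, n = 3) of the HD sum of 273559 to 278234, gave way in WNT5B to Ctsb and Ctsd with means of 102670.4 and 90611.

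**Figure D1:**
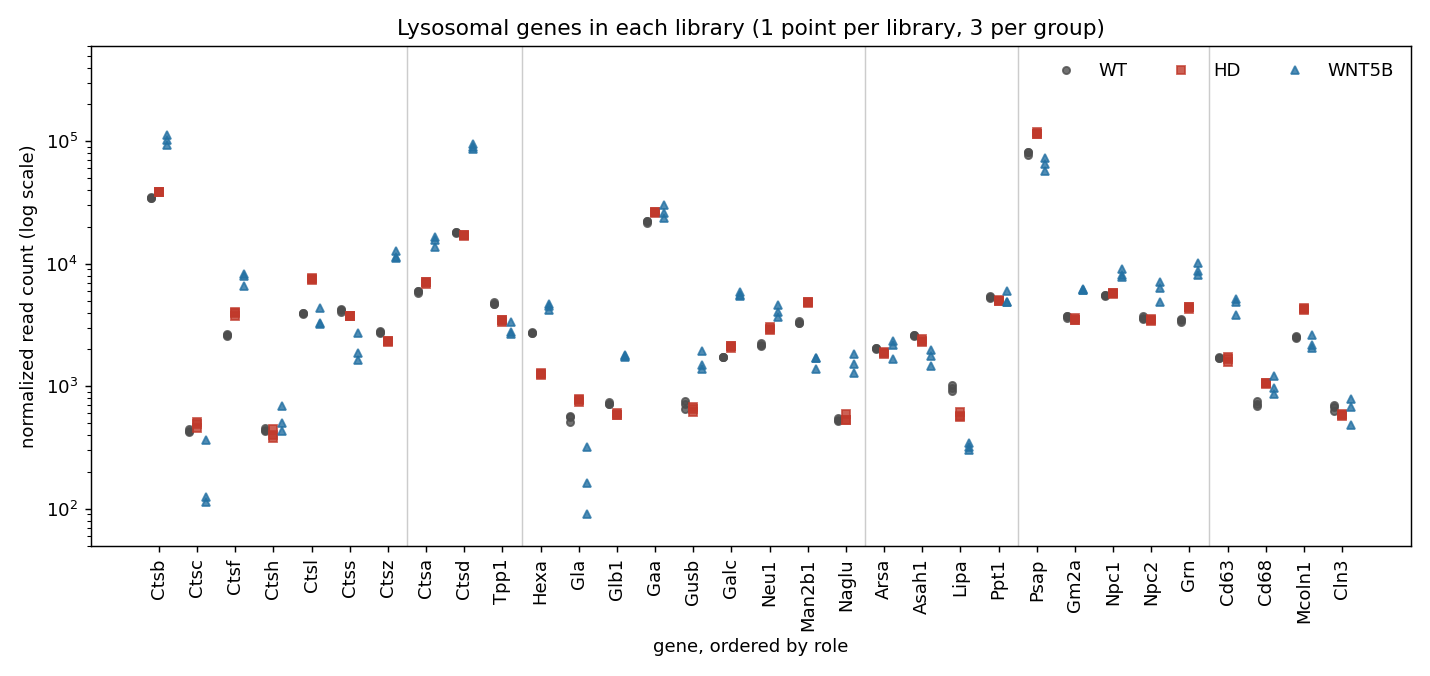
Normalized read count (log axis) of each of the 32 genes in each library, with 1 point per library and 3 libraries per group, ordered by role with lines between roles. WT and HD points lie close together within a group, and the WNT5B points of Ctsb, Ctsd and Ctsz stand above both, while those of Gla, Lipa and Man2b1 stand below.

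The parts of single genes in the sum above are counts and are not corrected for transcript length. Per kilobase of transcript, Psap was highest in WT (30236) and HD (43978). In WNT5B Psap was second (24529.9), above Ctsb (21647). Ctsd was highest in WNT5B at 42601, from 8482 in WT and 7997 in HD. Ctsb and Gaa followed at 7315 and 6087 in WT. The lowest were Ctsc at 135 in WT and 152 in HD, and Gla at 60.2 in WNT5B. The order of the groups differed by gene: 19 of the 32 had their highest mean in WNT5B, 7 in HD and 6 in WT.

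Among the 7 cysteine cathepsins, 2 rose and 1 fell in HD against WT, and 3 rose and 3 fell in WNT5B against HD. Ctsl, an endopeptidase of broad specificity, measured 3898, 3935 and 3929.8 in WT, 7588, 7462 and 7364 in HD, and 3223, 4358 and 3311 in WNT5B. HD stood apart above both other groups, whose libraries overlapped. WNT5B against WT was -0.12 (limma adjusted p = 0.287), and passed as lower without WNT5B library 2 (-0.26, limma adjusted p = 9.7e-05) and with equal totals (-0.71, 9.1e-05), but as higher with a transcript length and GC trend removed (0.77, 1.2e-04). The log2 change was 0.93 (SE 0.10, limma adjusted p = 1.4e-04) in HD against WT and -1.05 (SE 0.10, limma adjusted p = 1.4e-05) in WNT5B against HD. With that trend removed the fall in WNT5B against HD shrank to -0.17 (limma adjusted p = 0.165). Ctsl shares 26.85% of its exon bases with an antisense gene and a processed pseudogene, and the kit keeps no strand, so part of its count cannot be assigned.

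Ctsb, the most abundant cysteine cathepsin here, measured 34696, 34891 and 34503 in WT, 38406, 38744 and 38292 in HD, and 112096, 102977 and 92938 in WNT5B. The 3 groups did not overlap. HD against WT gave a log2 change of 0.15 that did not pass (SE 0.06, limma adjusted p = 0.0696), and passed with a weight for each group (limma adjusted p = 1.1e-08). The rise in WNT5B against HD was 1.41 (SE 0.06, limma adjusted p = 5.4e-08). Ctsb shares 12.79% of its exon bases with Fdft1 on the opposite strand, and Fdft1 also went from 5651 to 5774 in HD to 20477 to 23155 in WNT5B.

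Ctsz, a carboxypeptidase, measured 2836, 2735 and 2795 in WT, 2313, 2334 and 2362 in HD, and 11061, 11324 and 12806 in WNT5B. It fell in HD against WT (-0.26, SE 0.06, limma adjusted p = 0.00634) and rose in WNT5B against HD (2.32, SE 0.06, limma adjusted p = 2.0e-09). With the length and GC trend removed that rise was 1.09. Ctsf rose in both comparisons, from 2624 ± 55.6 (WT) to 3929.6 ± 135 (HD) and 7568 ± 849 (WNT5B). Its WNT5B against HD change of 0.94 was 0.38 with equal totals and 0.23 with the length and GC trend removed.

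Ctss, a protease prominent in microglia, measured 4064, 4187 and 4256 in WT, 3767, 3756 and 3742 in HD, and 2715, 1855 and 1629.7 in WNT5B. The groups did not overlap, and WNT5B was lowest. HD against WT was -0.15 (SE 0.16, limma adjusted p = 0.489, and 7.5e-05 with a weight for each group), and WNT5B against HD was -0.90 (SE 0.16, limma adjusted p = 7.7e-04). Ctsc, which activates granule serine proteases, scattered widely in WNT5B at 363, 114 and 124, below the 460.5 to 512 of HD. Its fall of -1.48 (SE 0.39, limma adjusted p = 0.00741) was -0.91 and no longer passed (limma adjusted p = 0.06) without the length and GC trend. Ctsh, an aminopeptidase, changed in neither comparison, and its values ranged over 431 to 457, 380.5 to 451 and 429 to 689. Without WNT5B library 2 it passed against HD (0.51, limma adjusted p = 0.0151) and against WT (0.40, limma adjusted p = 0.0396).

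Of the aspartic and serine proteases, Ctsd is the main aspartic protease of the lysosome. It measured 17937, 18129.8 and 18059.8 in WT, 17112, 17027 and 16892 in HD, and 89837, 95721 and 86276 in WNT5B. HD lay just below WT without overlap and WNT5B far above both. The change in WNT5B against HD, 2.41 (SE 0.04, limma adjusted p = 1.7e-10), was the largest rise among the 32, and stood at 2.64 relative to the median of all genes. HD against WT was -0.08 (limma adjusted p = 0.101). That change passed with equal totals (-0.11, limma adjusted p = 0.0116) and with a weight for each group (limma adjusted p = 1.1e-05). Ctsd shares 34.37% of its exon bases with Gm49369 on the same strand, which the files list at 17.7 to 49.2 in WT and HD and at 0 in the 3 WNT5B libraries.

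Ctsa, the carboxypeptidase that shields β-galactosidase and the sialidase Neu1 in a complex, went up at each step, from 5929 ± 127 (WT) to 6984 ± 150.1 (HD) and 15294 ± 1477 (WNT5B). The rise in HD, 0.24 (SE 0.06, limma adjusted p = 0.0173), did not pass without WT library 3 (0.0624), HD library 2 (0.0611) or HD library 3 (0.0559), or with upper-quartile factors (0.0709). Against HD the WNT5B rise was 1.13 (SE 0.06, limma adjusted p = 4.4e-07), and 0.57 with equal totals. Ctsa shares 17.37% of its exon bases with Pltp and Neurl2 on the opposite strand, and Neurl2 was at 94.1 to 115 in HD and 1417 to 2098 in WNT5B.

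Tpp1, a tripeptidyl peptidase lost in a childhood form of neuronal ceroid lipofuscinosis, measured 4702, 4848 and 4660.3 in WT, 3366, 3454 and 3491 in HD, and 2794, 3322 and 2672 in WNT5B. WT was highest and the 3 groups did not overlap. It fell in HD against WT (-0.46, SE 0.08, limma adjusted p = 0.00132). The further fall in WNT5B against HD, -0.24 (SE 0.08, limma adjusted p = 0.0194), did not pass with a weight for each group (0.0785), with only these 2 groups fitted (0.0547), or without HD library 2 (0.0531), HD library 3 (0.0587) or WNT5B library 1 (0.0539). With the length and GC trend removed its sign turned (0.03).

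**Figure D2:**
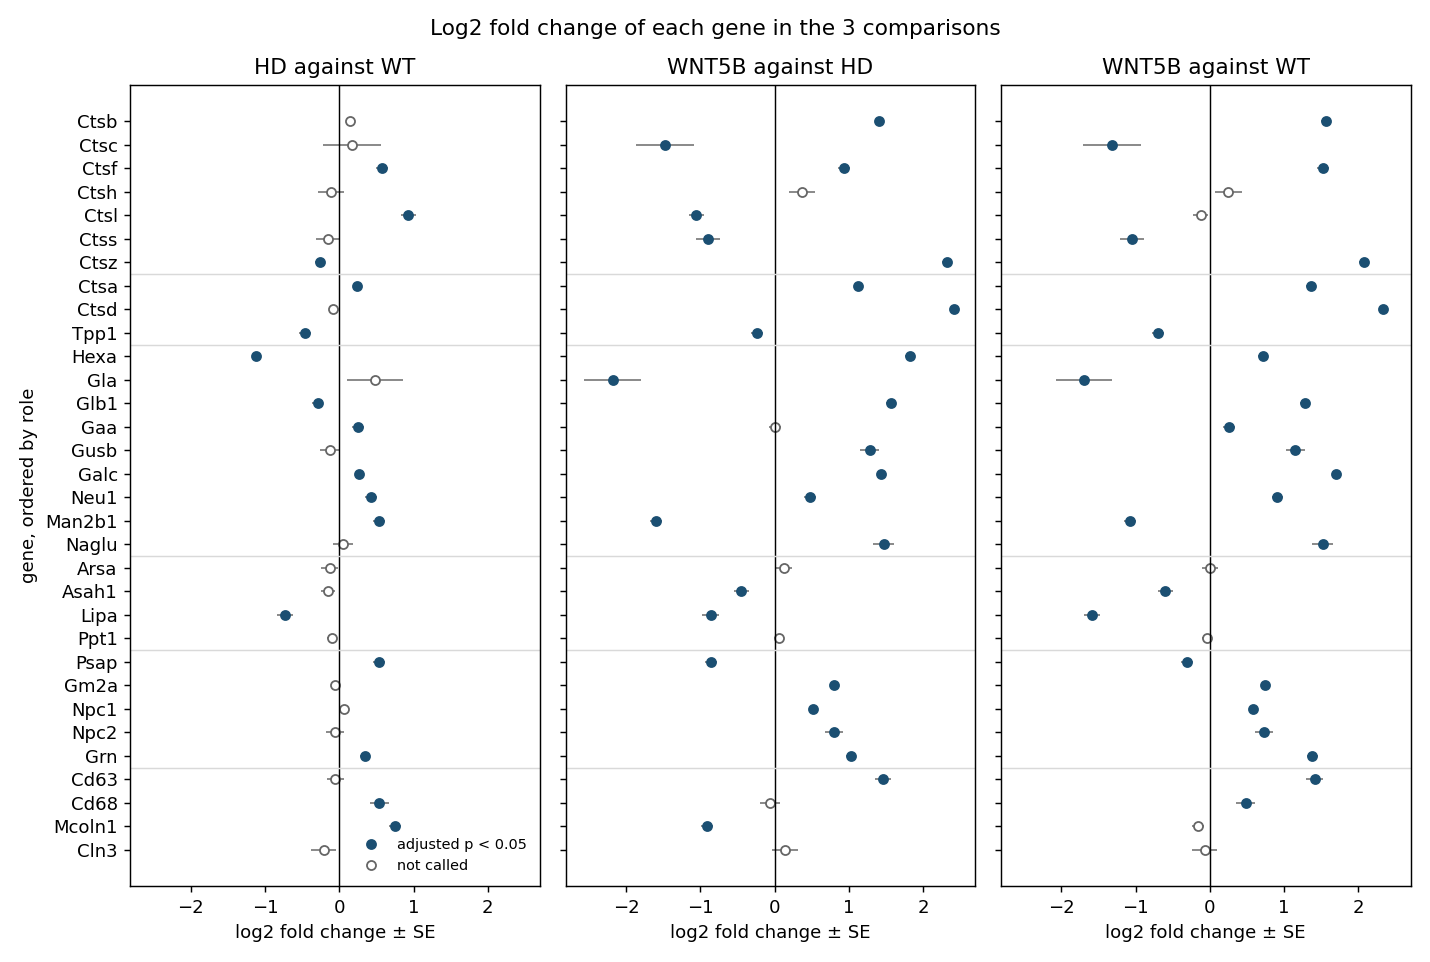
Log2 change with its SE for each gene in the 3 comparisons (HD against WT, WNT5B against HD, WNT5B against WT), with filled points for limma adjusted p under 0.05. Changes lie between -1.12 and 0.93 in HD against WT and between -2.18 and 2.41 in WNT5B against HD.

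Of the 9 glycosidases, 4 rose and 2 fell in HD against WT, and 6 rose and 2 fell in WNT5B against HD. Hexa encodes the α subunit of β-hexosaminidase, which degrades the ganglioside GM2 and is lost in Tay-Sachs disease. It measured 2775, 2713 and 2726 in WT, 1268, 1239 and 1279 in HD, and 4168, 4546 and 4719.8 in WNT5B. HD was lowest and WNT5B highest, with no overlap. The fall in HD, -1.12 (SE 0.06, limma adjusted p = 2.0e-06), was the largest of the 32. The rise in WNT5B against HD was 1.82 (SE 0.06, limma adjusted p = 7.4e-09), and 1.12 with the length and GC trend removed. Against WT the WNT5B libraries were higher by 0.71, which did not pass with equal totals (0.13, limma adjusted p = 0.0787) and had the opposite sign with the length and GC trend removed (-0.02). Hexa shares 12.78% of its exon bases with Tmem202 on the opposite strand, which reached 277 to 399 in WNT5B.

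Glb1, the β-galactosidase that removes galactose from GM1, measured 715, 743 and 712 in WT, 580.5, 585 and 606 in HD, and 1735, 1801 and 1761 in WNT5B. It followed the order of Hexa without overlap, falling by 0.29 in HD (SE 0.07, limma adjusted p = 0.0115) and rising in WNT5B against HD (1.57, SE 0.07, limma adjusted p = 1.1e-07). Without WT library 2 the fall in HD did not pass (limma adjusted p = 0.0555). With equal totals the rise was 1.02.

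Galc, the galactosylceramidase of myelin lipid turnover that is lost in Krabbe disease, measured 1727, 1747 and 1728 in WT, 2137, 2113 and 2047 in HD, and 5919, 5580.1 and 5483 in WNT5B. It rose in HD (0.27, SE 0.05, limma adjusted p = 0.00145) and again in WNT5B against HD (1.43, SE 0.05, limma adjusted p = 1.1e-08). That rise was 0.88 with equal totals and 2.32 with the length and GC trend removed. Naglu, an enzyme of heparan sulfate breakdown, and Gusb, a β-glucuronidase, did not pass in HD against WT and rose in WNT5B against HD. Their means went from 551 and 651 in HD to 1547 and 1598 in WNT5B, log2 changes of 1.47 and 1.28 that were 0.92 and 0.72 with equal totals. Gusb passed as lower in HD against WT with a weight for each group (-0.13, limma adjusted p = 0.0319).

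Gla and Man2b1 went the other way. Gla, the α-galactosidase lost in Fabry disease, measured 566, 513 and 572 in WT, 743, 774 and 789 in HD, and 163, 319.6 and 90.1 in WNT5B. WNT5B was lowest without overlap but spread over a wide range. The change in WNT5B against HD was -2.18 (SE 0.38, limma adjusted p = 7.0e-04), the deepest fall among the 32, and HD against WT was 0.48 (SE 0.38, limma adjusted p = 0.348, and 8.8e-06 with a weight for each group). Man2b1, the α-mannosidase of glycoprotein breakdown, measured 3429, 3293 and 3288 in WT, 4767, 4851 and 4829 in HD, and 1705, 1689.8 and 1394 in WNT5B. It rose in HD (0.53, SE 0.08, limma adjusted p = 6.5e-04) and fell in WNT5B against HD (-1.60, SE 0.08, limma adjusted p = 1.4e-07), with no overlap between groups.

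Neu1, a sialidase, rose from 2180.0 ± 55.5 (WT) to 2934 ± 88.5 (HD) and 4103 ± 482 (WNT5B). Its WNT5B against HD change, 0.48 (limma adjusted p = 5.5e-04), turned to -0.08 with equal totals. Gaa, the acid α-glucosidase of glycogen, had means of 22114 in WT, 26317 in HD and 26596 in WNT5B. Its rise in HD (0.25, limma adjusted p = 0.0276) did not pass without any of the 6 WT and HD libraries in turn (0.0651 to 0.0863), with equal totals (0.0606) or with upper-quartile factors (0.0988). In WNT5B against HD it did not pass (0.01, limma adjusted p = 0.931) and passed as lower with equal totals (-0.55, limma adjusted p = 3.1e-04).

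The 4 enzymes of sulfate, ceramide, thioester and lipid ester bonds showed no rise in either comparison at the deposited scale. Lipa, the acid lipase that frees cholesterol from its esters, measured 972, 1022 and 923 in WT, 576, 562 and 617 in HD, and 320.2, 342 and 302 in WNT5B. It stepped down from WT to HD to WNT5B without overlap. The log2 changes were -0.73 (SE 0.11, limma adjusted p = 6.9e-04) in HD against WT and -0.86 (SE 0.11, limma adjusted p = 7.9e-05) in WNT5B against HD, the second becoming -0.25 (limma adjusted p = 0.0618) with the length and GC trend removed. Asah1, the acid ceramidase, fell in WNT5B against HD from 2361 ± 51.5 to 1741 ± 259 (-0.45, limma adjusted p = 0.00266), and this too did not pass with that trend removed (-0.07, limma adjusted p = 0.516).

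Arsa, the arylsulfatase lost in metachromatic leukodystrophy, had means of 2042 in WT, 1861 in HD and 2059 in WNT5B. At the deposited scale, with all libraries and the shared spread, it passed in no comparison. With a weight for each group it passed as lower in HD against WT (-0.13, limma adjusted p = 4.7e-04). Without WNT5B library 1 it passed as higher against HD (0.27 in place of 0.13, limma adjusted p = 0.00115) and against WT (0.14, 0.0284). With equal totals it passed as lower against HD (-0.42, limma adjusted p = 0.00773) and against WT (-0.58, 0.00125). Ppt1, a thioesterase that removes palmitate from proteins, ranged over 5298 to 5471 (WT), 4971 to 5099.9 (HD) and 4891 to 5989.7 (WNT5B). Neither comparison moved it past the threshold with the shared spread. With a weight for each group it passed as lower in HD against WT (-0.10, limma adjusted p = 1.8e-04), where the groups did not overlap. With equal totals its WNT5B against HD change of 0.06 became -0.49 (limma adjusted p = 9.8e-05), and with the length and GC trend removed it became 0.30 (limma adjusted p = 0.0068). Without WNT5B library 2 it passed as lower against WT (-0.14, limma adjusted p = 0.00332).

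Among the activators, lipid carriers and granulins, Psap encodes the precursor of the saposins, which present sphingolipids to their hydrolases. It measured 82208, 81446 and 77356 in WT, 115427, 115482 and 119638 in HD, and 57412, 65218 and 72897 in WNT5B. HD was highest and WNT5B lowest, with no overlap. Psap rose in HD against WT (0.54, SE 0.08, limma adjusted p = 5.5e-04) and fell in WNT5B against HD (-0.85, SE 0.08, limma adjusted p = 8.7e-06), to below WT (-0.31, SE 0.08, limma adjusted p = 0.00523).

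Grn, the progranulin precursor gene whose loss causes a neuronal ceroid lipofuscinosis, measured 3515, 3471 and 3351 in WT, 4305, 4426 and 4430.1 in HD, and 8156, 8682 and 10197 in WNT5B. It rose in both steps without overlap (0.35, SE 0.07, limma adjusted p = 0.0054, and 1.03, SE 0.07, limma adjusted p = 2.1e-06), the second being 0.48 with equal totals or with the length and GC trend removed. Gm2a, the activator that lifts GM2 to β-hexosaminidase, was at 3474 to 3606 in HD and 6091 to 6279 in WNT5B. It did not pass in HD against WT (-0.06, limma adjusted p = 0.194), and its WNT5B against HD rise of 0.80 (SE 0.04, limma adjusted p = 9.8e-08) was 0.25 with equal totals. In HD against WT it passed as lower with a weight for each group (limma adjusted p = 0.0121) and with upper-quartile factors (-0.13, limma adjusted p = 0.0347).

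Npc1 and Npc2, which together carry cholesterol out of the lysosome, did not pass in HD against WT with the shared spread. With a weight for each group Npc1 passed as higher (0.06, limma adjusted p = 0.00885) and Npc2 as lower (-0.06, limma adjusted p = 0.0404). In WNT5B against HD Npc1 rose by 0.52 (limma adjusted p = 2.0e-05) from 5761 ± 70.3 to 8299 ± 644, a change that was -0.03 with equal totals and 1.30 with the length and GC trend removed. Npc2 rose by 0.80 (limma adjusted p = 2.7e-04) from 3478 ± 88.9 to 6113 ± 1140.3, and with equal totals its 0.24 did not pass (limma adjusted p = 0.12).

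Of the 4 membrane proteins, Mcoln1 encodes TRPML1, the calcium channel of the lysosome. It measured 2591, 2475 and 2536 in WT, 4184, 4327 and 4263 in HD, and 2064, 2157 and 2609.7 in WNT5B. HD stood above both other groups, and WT and WNT5B overlapped. WNT5B against WT was -0.16 (limma adjusted p = 0.104), and passed as lower without WNT5B library 3 (-0.26, limma adjusted p = 3.6e-04), with equal totals (-0.74, 6.9e-05), with upper-quartile factors (-0.23, 0.0407) and with trimmed-mean factors (-0.25, 0.0181). The changes were 0.75 (SE 0.08, limma adjusted p = 1.4e-04) in HD against WT and -0.91 (SE 0.08, limma adjusted p = 9.5e-06) in WNT5B against HD.

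Cd68, the macrosialin of phagocytes, rose in HD from 724 ± 36.4 to 1050.1 ± 10.3 (0.54, SE 0.13, limma adjusted p = 0.00838), and in WNT5B was at 971, 1218 and 864. WNT5B against HD did not pass (-0.06, limma adjusted p = 0.679). Without WNT5B library 2 it passed as lower (-0.20, limma adjusted p = 0.0458), as it did with equal totals (-0.61, 0.00105) and with the length and GC trend removed (-1.27, 6.7e-05). Its rise in WNT5B against WT, 0.48 (limma adjusted p = 0.00749), did not pass with a weight for each group (0.0554), and with the length and GC trend removed it passed as lower (-0.79, limma adjusted p = 0.0013). Cd63, a tetraspanin of lysosomes and exosomes, did not pass in HD against WT and rose in WNT5B against HD from 1662 ± 65.7 to 4599 ± 723 (1.46, limma adjusted p = 2.2e-06). Cln3, the Batten disease gene, passed in neither comparison with the shared spread and all libraries, at 572 to 589 in HD and 482 to 787 in WNT5B. It passed against HD without WNT5B library 2 (0.34, limma adjusted p = 0.00985). With a weight for each group it passed as lower in HD against WT (-0.21, limma adjusted p = 0.00154).

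Genes that share the palindrome printed above did not move together in WNT5B against HD. Their sites were chosen for printing with that known, so this is a description and not a test. Ctsd (2.41) and Ctsa (1.13) rose, Mcoln1 (-0.91) and Gla (-2.18) fell, and Cln3 (0.14) did not pass. Of the genes of the TFEB family, Tfeb was at 416 to 480.0 in HD and 1356 to 1645 in WNT5B, Tfe3 at 3457 to 3528 and 1002 to 1218, and Mitf at 795 to 809 and 257 to 472. Tfeb rose, and Tfe3 and Mitf fell. Whether any of them acts on these 5 genes was not tested.

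Ratios within a library do not depend on its scale, and are compared here between groups, not between genes. Ctsd to Psap was 0.218, 0.223 and 0.233 in WT, 0.148, 0.147 and 0.141 in HD, and 1.56, 1.47 and 1.18 in WNT5B. Ctsb to Ctsl was 8.78 to 8.9, 5.06 to 5.2 and 23.6 to 34.8. For both, HD was lowest and WNT5B highest with no overlap. The activator Gm2a relative to its partner Hexa was 1.32 to 1.37 (WT), 2.77 to 2.82 (HD) and 1.33 to 1.46 (WNT5B), so HD alone stood apart. Neu1 to Ctsa was 0.362 to 0.374, 0.402 to 0.431 and 0.243 to 0.296, and Glb1 to Ctsa, their complex partner, 0.119 to 0.125, 0.0824 to 0.0862 and 0.106 to 0.127. No test was run on these ratios.

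**Figure D3:**
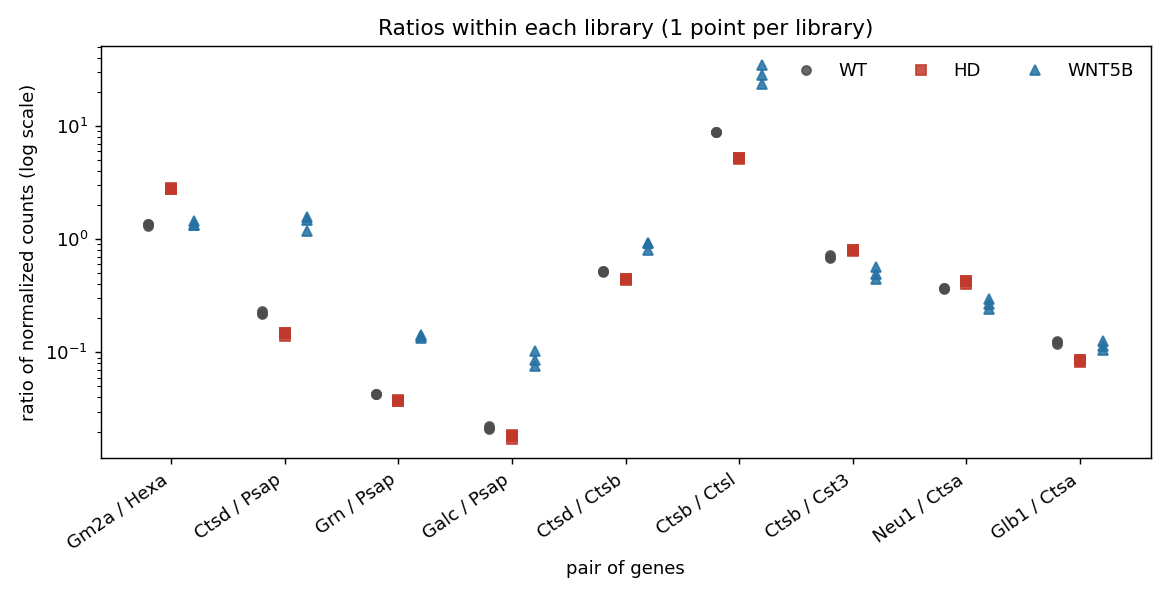
Ratio of normalized counts (log axis) for 9 pairs of genes in each library, with 1 point per library and 3 libraries per group. Ctsd to Psap and Ctsb to Ctsl are lowest in HD and highest in WNT5B, and Gm2a to Hexa is high in HD alone.

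Other lysosomal genes were counted from lists of the pathway, and every count below and every count of cell type markers stands beside 45.1% of all genes called in HD against WT, 77.5% in WNT5B against HD and 77.9% in WNT5B against WT. Of the further hydrolases 14 of 30 and 24 of 30 were called in the first 2 comparisons, near those shares. By direction, 8 rose and 6 fell in HD against WT, and 13 rose and 11 fell in WNT5B against HD (11 and 15 with equal totals), with medians of -0.09 and -0.03. Fuca1, the α-fucosidase, rose in both (1287 in WT, 1947 in HD, 14425 in WNT5B). In WNT5B against HD the acid sphingomyelinase gene Smpd1 rose from 4970 to 15798 (1.67, SE 0.04, limma adjusted p = 8.7e-10) and the acid nuclease gene Dnase2a from 221 to 8678 (5.27, SE 0.12, limma adjusted p = 1.2e-09). Pld3, a lysosomal nuclease, fell in HD from 36856 to 23204 (-0.67, SE 0.03, limma adjusted p = 7.2e-07).

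Of 18 subunits and partners of the V-ATPase, the proton pump of the lysosome, 10 rose and 2 fell in HD against WT, and 10 rose and 5 fell in WNT5B against HD (8 and 9 with equal totals). Atp6v0a1 went from 24028 in WT to 40220 in HD (0.74, SE 0.03, limma adjusted p = 8.8e-07). Atp6v1g1 went from 3395 in HD to 13283 in WNT5B (1.97, SE 0.04, limma adjusted p = 1.3e-09). Of 20 membrane proteins and channels, 6 rose and 3 fell in HD, and 4 rose and 11 fell in WNT5B against HD (4 and 14 with equal totals). Lamp1, the abundant glycoprotein of the lysosomal membrane, rose in HD from 16570 to 20119 (0.28, SE 0.05, limma adjusted p = 0.00184) and fell in WNT5B to 9742 (-1.05, SE 0.05, limma adjusted p = 1.1e-07).

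Of 13 genes that sort enzymes to the lysosome, 4 rose and 2 fell in HD, and 3 rose and 7 fell in WNT5B against HD (2 and 9 with equal totals). The sorting receptors Sort1 (33313 to 12583, -1.41, SE 0.04, limma adjusted p = 2.4e-09) and Igf2r, a mannose 6-phosphate receptor (3987 to 688, -2.56, SE 0.15, limma adjusted p = 5.6e-07), fell in WNT5B. M6pr, the other mannose 6-phosphate receptor, went from 6758 in HD to 4114 in WNT5B. Of 17 tested genes of the TFEB family and lysosomal mTORC1 signalling, 6 rose and 3 fell in HD, and 8 rose and 8 fell in WNT5B against HD (5 and 11 with equal totals). The Ragulator genes Lamtor4 (908 to 7823) and Lamtor2 (1102 to 8306) rose, and the Rag GTPase gene Rraga (7446 to 1300) fell. Among 4 cystatins, the inhibitors of cysteine cathepsins, Cst3 rose in WNT5B from 47848 to 205099 (2.10, SE 0.03, limma adjusted p = 2.3e-10) and Cst6 from 203 to 2184. Ctsb relative to Cst3 was 0.679 to 0.72 (WT), 0.793 to 0.81 (HD) and 0.442 to 0.567 (WNT5B).

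Markers of cell types moved with the groups. In bulk tissue fewer cells of a type and less RNA per cell cannot be told apart. Of 18 microglia markers 16 fell in HD, and their summed value was 37862 to 38414 (WT) and 15468 to 15593 (HD), while the microglial protease gene Ctss was at 3742 to 3767 in HD beside 4064 to 4256 in WT. In WNT5B the sum was 49949.5 to 54059, with 8 of 18 higher and 1 lower than in HD. Against WT 6 of 18 were higher and 11 lower, with a median log2 change of -1.24, so the sum above WT did not stand for the list. It was carried by Cx3cr1 (mean 19940, beside 4765 in WT) and C1qa (10330 beside 3029). Of the other defining markers, P2ry12 (508 beside 2431), Tmem119 (513 beside 1495) and Csf1r (3279 beside 8022) were lower than in WT. As a share of all values the list took 0.0692 to 0.0702% (WT), 0.0278 to 0.028% (HD) and 0.0625 to 0.0645% (WNT5B). The 8 border macrophage markers summed to 569 to 609, 595 to 615 and 701 to 882 in WT, HD and WNT5B, with Mrc1 at 0 in the 3 WNT5B libraries. Their share of all values did not rise in WNT5B, at 0.00104 to 0.00112% (WT), 0.00107 to 0.0011% (HD) and 0.000878 to 0.00107% (WNT5B).

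The 10 oligodendrocyte markers summed to 496826 to 501829.8, 363119 to 365579.7 and 839417 to 888601 in the same order, with 9 of 10 lower in HD and 7 of 10 higher in WNT5B than in HD. Choroid plexus markers, 5 in all, summed to 888 to 955, 960.1 to 995 and 11258 to 14582. That rise was carried by Ttr (mean 679 in HD, 12656 in WNT5B): in WNT5B against HD 2 of the 5 were higher and 2 lower (median -0.20), with Kl at 144 in HD and 60.6 in WNT5B. The 8 endothelial markers summed to 16001 to 16298, 10896 to 10942 and 42931 to 51227. Their sum in WNT5B was carried by Cldn5 (28897, beside 1710 in WT) and Flt1 (11214 beside 4821), while against WT 3 were higher and 5 lower (median -0.73) and Cdh5 was at 116 beside 792. Astrocyte markers summed to 327326 to 330469, 211579 to 212975 and 200487 to 215327. The like sums of HD and WNT5B did not stand for the list, as 4 of 10 were higher and 4 lower in WNT5B (4 and 6 with equal totals). They were alike only at the deposited scale. As a share of all values astrocyte markers took 0.598 to 0.606% (WT), 0.38 to 0.382% (HD) and 0.251 to 0.263% (WNT5B). From HD to WNT5B S100b went from 4674 to 74719 and Aldh1l1 from 3344 to 15227. Slc1a2 went from 111245 to 33822 and Aqp4 from 2719 to 256. Fibroblast markers summed to 2467 to 2549.7, 1707 to 1762 and 613 to 1213. The 4 neutrophil markers summed to 4.38 to 7.27, 542 to 635 and 1238 to 1404. That sum was carried by S100a8 (mean 274 in HD, 689.8 in WNT5B) and S100a9 (318 and 630.4), the only 2 tested. Both passed as higher in WNT5B against HD, and neither did with a weight for each group. Ly6g was at 0 in WT and WNT5B, and Camp at 0 in the WNT5B libraries. Lymphocyte markers summed to at most 22.5 in any library. The part of these cell types in the changes of the 32 genes was not tested.

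**Figure D4:**
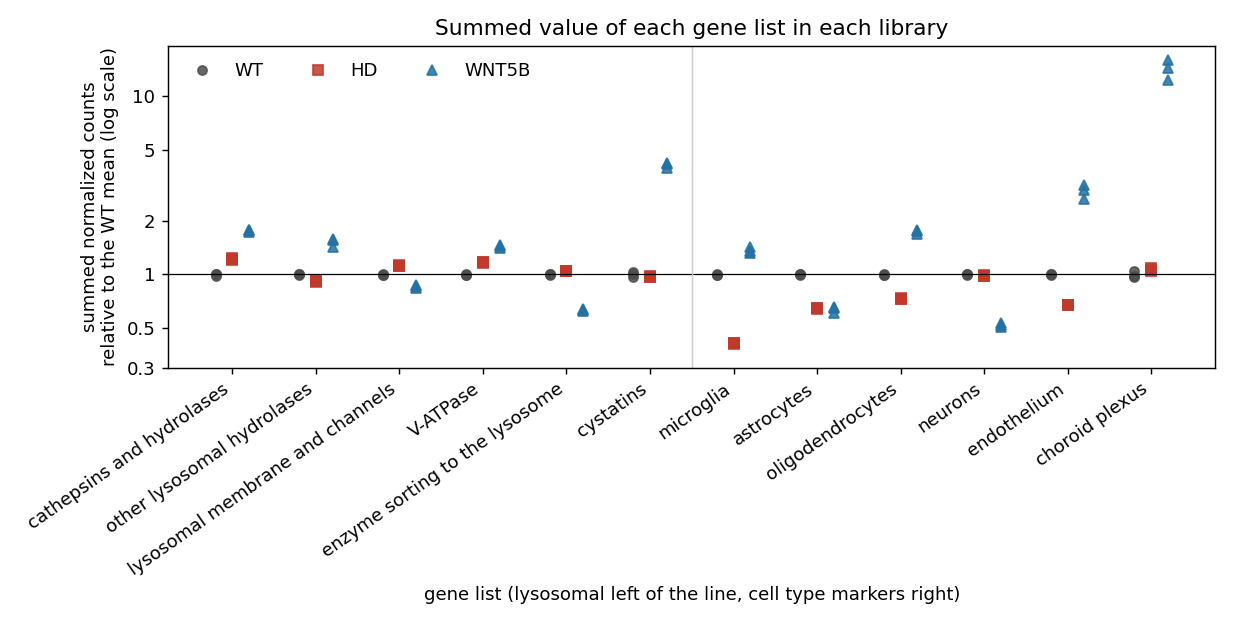
Summed normalized count of each gene list in each library, relative to the mean of the WT libraries (log axis), with 1 point per library, lysosomal lists left of the line and cell type markers right of it. At the deposited scale the microglia list is low in HD and above WT in WNT5B, a sum carried by Cx3cr1 and C1qa. The neuron sum is lowest in WNT5B, and the astrocyte sums of HD and WNT5B overlap at that scale. Markers of both lists moved in both directions between HD and WNT5B.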

How the data were processed

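The signal values used here were deposited by the authors as 1 normalized decimal per protein-coding gene and library, and judging by the values each is an estimated read count over a factor of its library. Per the submitters' processing notes, the aligner was STAR and the build mm10. The sources used here name no counter, normalizing program or version. Low values (under 60) were whole multiples of 1 step per library for 97.04 to 98.51% of genes (tolerance 0.01). All 21853 identifiers matched GENCODE M21, which gave symbols, positions and exon overlaps.

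Because the values are not whole counts, the main test was limma 3.58.1 in R 4.3.3 with a variance trend, on log2(value + 3), with 1 mean per group over 9 libraries (6 residual degrees of freedom). The 15411 genes that reached 10 in 3 or more libraries were tested, and a gene was called at a Benjamini-Hochberg adjusted p under 0.05 over all of them. The added constant understates the changes of low genes. SE is that of the moderated fit. "A weight for each group" replaced the shared spread with limma's array weights by group. The length and GC trend was a spline (5 degrees of freedom) removed per library. The procedure was tested on simulated data.

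All 32 genes are named whatever their values. Up to 4 genes of smallest p per pathway list and comparison and the first 4 markers of a cell type are named too. Tfeb, Mitf, M6pr, the genes with shared exons and the markers that carry a sum were added after their values were seen. Some genes that meet this rule are not reported here. The members and lists were chosen with earlier results of these data known. Labels of replicates carry numbers, but same-numbered libraries did not deviate together (correlations of -0.08 to 0.02), so no pairing was used.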

Additional observations from a re-analysis of the deposited data

How the results depend on the processing

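In HD against WT 28 of the 32 genes passed with a weight for each group and 29 with only these 2 groups fitted, in place of 16, as the scattered WNT5B libraries then left the spread. Over all genes 12779 and 12917 passed in place of 6957. Leaving out 1 library at a time gave 14 to 19 in HD against WT, 25 to 29 in WNT5B against HD and 26 to 29 in WNT5B against WT. Leaving out WNT5B library 1 added Ctsb, Ctss and Arsa in HD against WT, library 2 Ctsd, Asah1 and Ppt1, and library 3 Ctsb and Ctsd. The other settings run stayed within 1.5 times of the counts given. With the replicate block the counts were 16, 26 and 26, and no call of the 32 changed. Signs turned with equal totals in WNT5B against HD for Gaa (-0.55), Arsa (-0.42), Npc1 (-0.03), Ppt1 (-0.49), Neu1 (-0.08), Ctsh (-0.18) and Cln3 (-0.42), and against WT for Gaa (-0.32), Cd68 (-0.10) and Ctsh (-0.32). Against WT they also brought Ctsl (-0.71), Arsa (-0.58), Mcoln1 (-0.74), Ppt1 (-0.62) and Cln3 (-0.65) past the threshold as lower, and left Hexa (0.13), Npc1 (0.00) and Npc2 (0.15) short of it. Equal totals lower the WNT5B values against the others by construction. With the length and GC trend removed they turned against HD for Gaa (-0.36), Tpp1 (0.03) and Arsa (-0.13), and against WT for Ctsl (0.77), Hexa (-0.02), Gaa (-0.06), Cd68 (-0.79) and Ppt1 (0.14); the cause was not tested. Without WNT5B library 1 Arsa against WT turned to 0.14, and without WNT5B library 3 Gaa against WT was 0.16 in place of 0.26. Gaa against WT did not pass with upper-quartile (0.19) or trimmed-mean factors (0.17). Leaving out 1 library also turned the sign of uncalled changes under 0.15 in size for Naglu, Ppt1, Gaa, Cd68 and Cln3. Voom weights on estimated reads, an alternative chosen after seeing the data, gave 18, 26 and 26. The 2 planned count models (edgeR and DESeq2 on recovered reads) were not run, since part of the values did not come out as whole reads. The WNT5B libraries hold the fewest reads, and 1 read is worth 1.61 to 2.14 in them, which limits the low genes Gla and Ctsc.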
